A study of Mus musculus with 12 samples.

Results

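The genes described here are 49 interferon-stimulated genes of the mouse that are neither guanylate binding proteins, immunity-related GTPases nor oligoadenylate synthetases. They were taken by name, each as the row of the deposited tables that carries its symbol, and all 49 were found among the 55487 genes listed. The list was chosen with earlier results of these data known. Counts of members set beside those of all genes are therefore a description and not a test. They fall into 12 subfamilies or functional groups, from the IFIT family and the ISG15 system to small groups of 2 or 3 related genes. RNA was sequenced from excised back-skin wounds of male C57BL/6JNarl mice, aged 6 weeks, with no genetic modification given in the labels. Each mouse carried a pair of full-thickness punch wounds that were covered with a dressing. The CAP-treated wounds received 10 µM capsaicin (CAP), the pungent compound of chili peppers, once daily in Pluronic F127 gel, and the wounds of the sham group received the gel alone. There were 3 libraries from each treatment at day 3 and 3 at day 6 after wounding, 12 libraries in 4 groups, and wounds without gel are not among them.

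Interferons are secreted cytokines that cells release when they sense nucleic acids of viruses or of damaged cells. Type I interferons bind a receptor that activates the kinases Jak1 and Tyk2, and a complex that holds Stat2 and Irf9 then binds the interferon-stimulated response element in the promoters of target genes. The products of these genes block virus entry, translation and replication, and several of them sense nucleic acids or feed back on the pathway. In skin, injury is known to induce interferon-stimulated genes in the absence of infection, and many cell types, among them monocytes, macrophages, keratinocytes and fibroblasts, can express them.

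The promoters were read first, because the response element is what the family is known to share. RefSeq promoter sequences of the build GRCm38.p6, each 300 bases from 250 before the gene's start to 50 after it, were matched for 37 of the 49 members. Usp18, Dhx58, Zbp1, Mx1, Mx2, Parp9, Parp14, Ifi204, Ifi27, Ifi27l2a, Rtp4 and Ly6e had no entry. The core of the response element, searched on both strands as GAAANNGAAA, where N is any base, was found in 19 of the 37 members, or 51.4%, against 3.99% of the 27025 genes with a promoter. The core of the gamma-activated site, an element of genes that respond to interferon gamma, searched as TTCNNNGAA, was in 6 members, or 16.2%, against 9.55% of all genes. Adjacent copies of the response element core can overlap each other, and the search counted each of them. The promoters below were chosen after the values were seen, to show members that fell under CAP and carry the core (Isg15, Ifit3 and Phf11b), a member with the core and a small difference (Trim21), and a member that fell with no match in this window (Irf7). Capitals mark the matches of the response element core, written in the direction of the gene. The windows are chr4:156200769-156201068 on the minus strand for Isg15, chr19:34583279-34583578 on the plus strand for Ifit3, chr14:59341281-59341580 on the minus strand for Phf11b, chr7:102565433-102565732 on the minus strand for Trim21, and chr7:141266375-141266674 on the minus strand for Irf7.
Isg15: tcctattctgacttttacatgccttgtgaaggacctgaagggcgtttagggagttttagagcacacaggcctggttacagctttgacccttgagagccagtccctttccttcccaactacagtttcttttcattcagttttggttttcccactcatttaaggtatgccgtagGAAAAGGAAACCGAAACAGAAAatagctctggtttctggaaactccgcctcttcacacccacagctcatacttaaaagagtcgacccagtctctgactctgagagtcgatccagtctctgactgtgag
Ifit3: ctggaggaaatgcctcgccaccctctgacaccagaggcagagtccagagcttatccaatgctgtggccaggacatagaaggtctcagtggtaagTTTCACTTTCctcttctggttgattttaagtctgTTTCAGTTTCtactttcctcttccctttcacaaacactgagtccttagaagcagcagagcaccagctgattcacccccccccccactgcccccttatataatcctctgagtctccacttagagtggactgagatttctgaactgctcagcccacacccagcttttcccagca
Phf11b: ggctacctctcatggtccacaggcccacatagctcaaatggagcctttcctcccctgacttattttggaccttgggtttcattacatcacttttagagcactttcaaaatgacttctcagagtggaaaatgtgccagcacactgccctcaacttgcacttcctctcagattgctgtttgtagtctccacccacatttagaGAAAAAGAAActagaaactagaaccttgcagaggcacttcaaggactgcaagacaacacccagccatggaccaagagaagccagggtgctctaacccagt
Trim21: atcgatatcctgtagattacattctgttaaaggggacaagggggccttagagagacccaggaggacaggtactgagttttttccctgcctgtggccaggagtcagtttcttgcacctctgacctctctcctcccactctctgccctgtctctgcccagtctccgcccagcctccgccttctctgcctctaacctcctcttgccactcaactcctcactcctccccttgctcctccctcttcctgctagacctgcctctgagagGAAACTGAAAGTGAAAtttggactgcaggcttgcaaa
Irf7: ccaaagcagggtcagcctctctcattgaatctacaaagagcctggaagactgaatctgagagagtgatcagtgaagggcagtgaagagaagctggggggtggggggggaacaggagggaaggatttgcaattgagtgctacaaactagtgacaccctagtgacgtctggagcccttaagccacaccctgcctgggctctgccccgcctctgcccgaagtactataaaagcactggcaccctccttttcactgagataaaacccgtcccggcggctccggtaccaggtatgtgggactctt

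Isg15 had 3 overlapping matches that began between 78 and 66 bases before the start (positions -78 to -66). Ifit3 had matches at -156 and -122, read on the opposite strand, Phf11b had 1 at -50, and Trim21 had 2 just inside the gene, at 13 and 19. By subfamily, the core was found in 3 of 4 IFIT members, 3 of 3 matched sensors, 3 of 5 SLFN members, 2 of 3 PHF11 members and none of the 6 matched members of the mixed group. The presence of the core did not separate the members by their difference at day 3. Of the 19 members with it, 7 fell past the threshold and the median log2 difference between CAP and sham was -0.94. Of the 18 matched members without it, 8 did so, with a median of -0.79. A match is a run of letters and not a measured binding site. The absence of one refers to this window and this exact spelling only, so members without a match may still hold a response element.

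The unit of the deposited values is TPM, a relative abundance of transcripts, in which each gene is scaled by its length and each library to the same total, so levels of different genes can be set side by side. TPM does not carry the number of reads, so depth is unknown and no counting error can be given. The files listed 18533 to 19325 genes at 0.3 TPM or more per library. No source used here tells whether 2 libraries can stem from the same mouse, so n is a number of libraries and a p value measures the spread between them, which may in part be technical. As a check of the tissue, all libraries held keratinocyte markers (6 genes, 29432 to 96278 TPM in sum), fibroblast markers and monocyte and macrophage markers. Replicate 2 of CAP at day 6 stood apart, with the highest keratinocyte sum (96278 TPM), the lowest neutrophil sum (278 TPM against 1162 to 6099 in the other 11) and the lowest endothelial sum (66.3 TPM). The counts of members past the threshold that involve day 6 are therefore also given without it. All other counts at day 6, and the values of single genes and of marker lists, include it.

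All 49 members passed the filter of at least 0.3 mean TPM in each group. Their mean levels in sham wounds at day 3 ran from 3.15 TPM for Ifi44 to 901 TPM for Ly6e, with a median of 33.6 TPM. Sham wounds at day 3 had the highest of the 4 group means in 45 of the 49 members, and CAP-treated wounds at day 6 had the lowest in 44. The intermediate groups were less distinct: the mean of CAP at day 3 was below that of sham at day 6 in 29 members and above it in 20. Relative to the mean of the sham libraries at day 3, the median member was at -0.51, -1.38 and -0.90 on the log2 scale in CAP replicates 1, 2 and 3 of day 3. It was at -0.51, -0.93 and -0.76 in the sham libraries of day 6 and at -0.91, -1.59 and -1.15 in the CAP libraries of day 6. The median of all genes stayed between -0.18 and 0.04 in all 12 libraries.

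**Figure D1:**
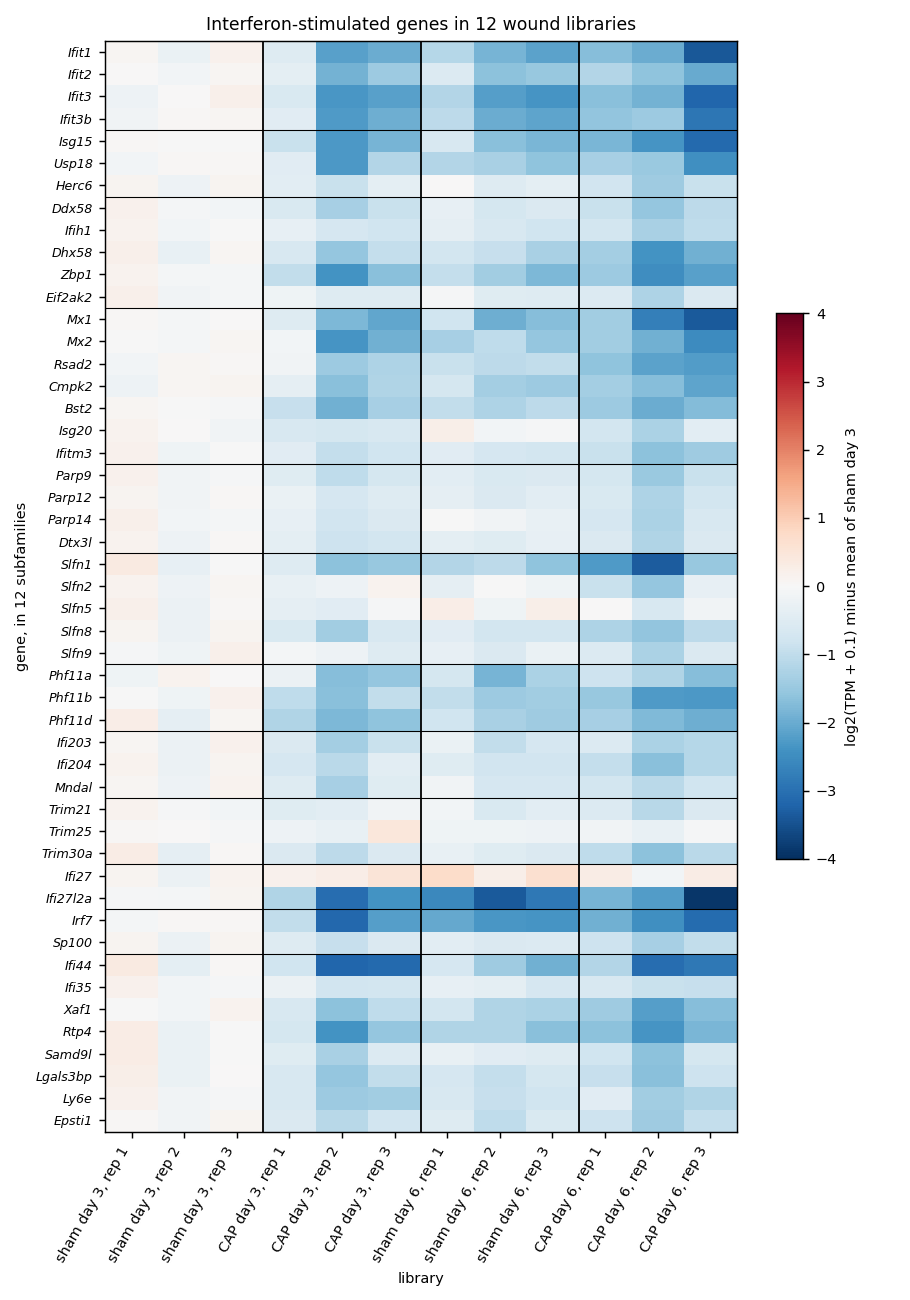
Heat map of the 49 members (rows, in 12 subfamilies set apart by black lines) in the 12 libraries (columns), coloured by log2(TPM + 0.1) minus the mean of the 3 sham libraries of day 3. Blue marks lower levels, and the columns of sham day 3 stand out as the highest in nearly all rows, while CAP replicate 1 of day 3 is paler than replicates 2 and 3.

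The spread between libraries was uneven. Among sham libraries of day 3 the median SD of the members was 0.17 on the log2 scale, close to the 0.18 of all genes. Among CAP libraries of day 3 it was 0.44 against 0.21 for all genes, and among CAP libraries of day 6 it was 0.39 against 0.24. Within CAP at day 3, replicate 1 was the highest of the group in 38 members and replicate 2 the lowest in 43. Within CAP at day 6, replicate 1 was the highest in 40 members and replicate 2 the lowest in 33.

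The first comparison asked how CAP-treated wounds differed from sham wounds at day 3, in the inflammatory phase. Levels of the interferon-stimulated genes were lower under CAP, with 23 of 49 past the threshold, none higher past it, and a median log2 difference of -0.94. The threshold takes its cutoffs from the study but not its test, since the study names DESeq or DESeq2. It is an unadjusted p under 0.05 in limma and a difference of at least 2-fold on the scale log2(TPM + 0.1). That scale understates differences of genes near 0. Of the 18330 genes tested, 1.16% were lower past this threshold and 0.426% higher, and their median difference was -0.05. In all, 48 members had a negative difference, as did 62.2% of all genes. The members' negative differences ran from -2.37 for Ifi44, the member of lowest level, to -0.01 for Trim25, and Ifi27 had a positive one of 0.31. The 3 CAP libraries lay below all 3 sham libraries in 44 members, as in 8.75% of all genes. No member passed after Benjamini-Hochberg adjustment in limma (adjusted p 0.475 to 0.996), while 44 members and 1210 of the 18330 genes tested had an unadjusted p under 0.05, and 3 of all genes passed the adjustment. For a single gene the exact permutation test of 3 against 3 libraries cannot go below 0.1.

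Individual libraries changed the strength of this result, and the median member stayed negative with any of them left out. Without CAP replicate 2, the lowest in most members, 15 members were past the threshold. Without CAP replicate 1 there were 26 of the 48 still tested, since Ifi44 then fell under the filter. In the fit without CAP replicate 1, 13 members also passed at an adjusted p under 0.05 in limma, among them Isg15, Ifit3 and Mx1 (adjusted p 0.0253 each, log2 differences -2.08, -2.26 and -1.93). In that fit 48 of the 18234 genes tested passed the adjustment, and 1.97% were lower past the threshold. The share lower past it without CAP replicate 2 was 0.813%. In 14 members the call held in all 11 alternative fits: Bst2, Ifi27l2a, Ifit1, Ifit3, Ifit3b, Irf7, Isg15, Ly6e, Mx1, Phf11b, Phf11d, Rtp4, Slfn1 and Zbp1.

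**Figure D2:**
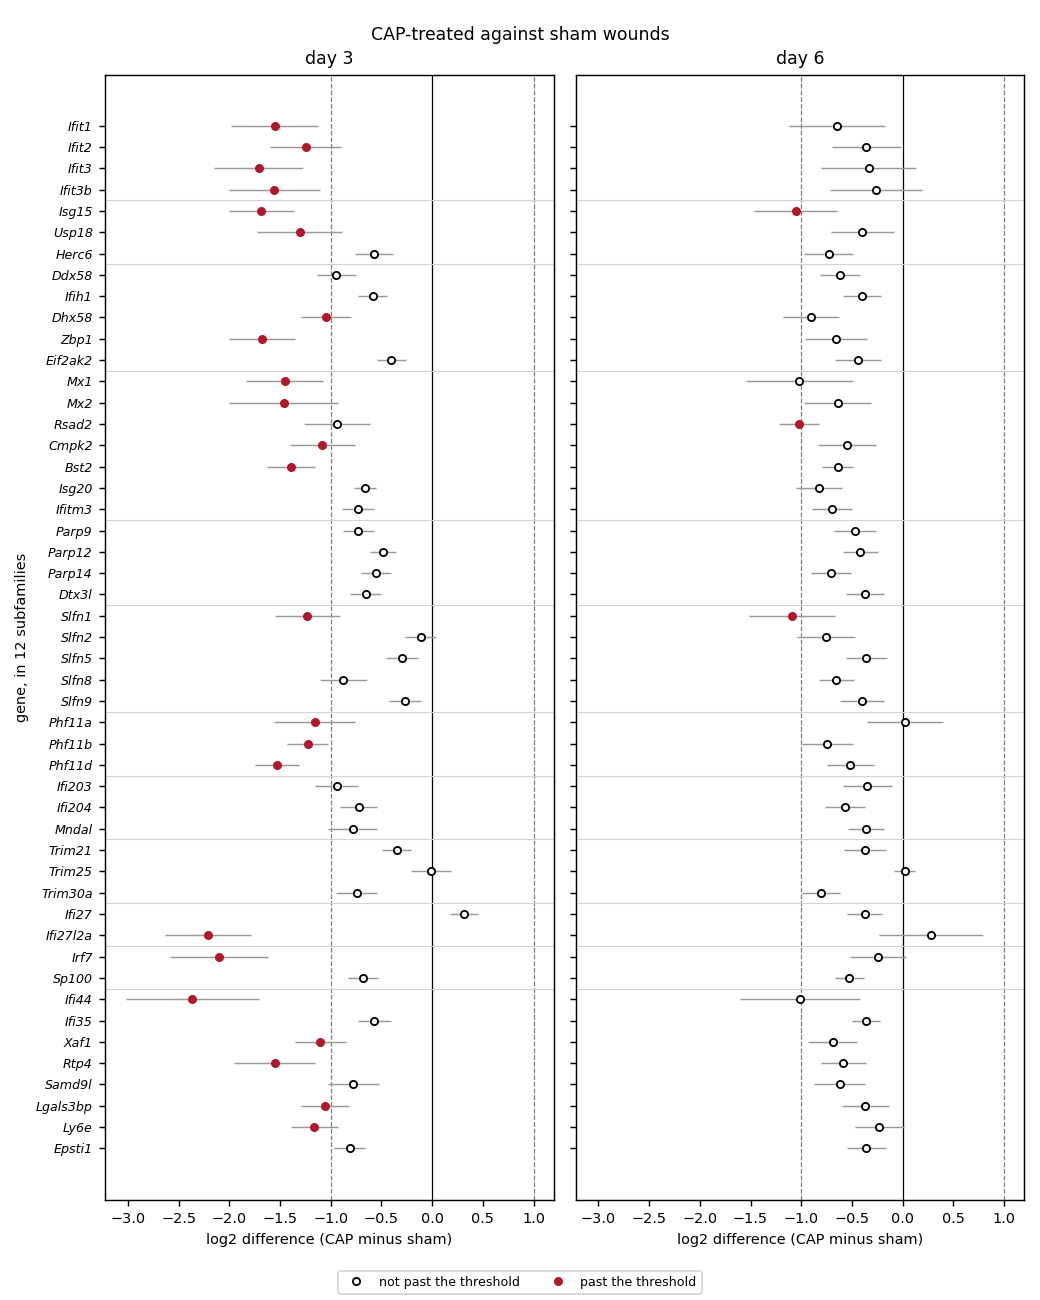
Log2 difference of CAP minus sham on the scale log2(TPM + 0.1) for the 49 members at day 3 (left) and day 6 (right), with the SE from limma as bars, dashed lines at 2-fold and red points past the threshold. At day 3, 23 members are red and lie below -1, and at day 6 only Isg15, Rsad2 and Slfn1 do so.

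The IFIT family consists of proteins that bind foreign RNA, such as RNA with an incomplete cap, and keep it from being translated. All 4 members fell past the threshold at day 3, with log2 differences of -1.25 to -1.71. Ifit3 was at 51.9, 59.8 and 68.7 TPM in the sham libraries of day 3 and at 39.3, 11.7 and 13.1 TPM in the CAP libraries. The CAP libraries were all below the sham libraries, with replicate 1 about midway and the other two low. The log2 difference was -1.71 (SE 0.44, n = 3 per group, adjusted p = 0.539 in limma). At day 6, Ifit3 was at 26.7, 12.9 and 11.5 TPM in sham and 18.7, 15.9 and 6.54 TPM in CAP, and the groups overlapped (log2 difference -0.34). Ifit3 and Ifit3b lie next to each other on chromosome 19 and share much of their sequence: 61.8% of the 31-base stretches of Ifit3 also occur in other genes, so reads may have been split between the pair. Their sum, which does not depend on that split, was 74.9 ± 9.57 TPM in sham and 27.2 ± 19.9 TPM in CAP at day 3 (SD, n = 3). Ifit1 and Ifit2, at 31.5 ± 4.73 and 27.7 ± 1.74 TPM in sham of day 3, were at 12.2 ± 8.51 and 12.8 ± 7.25 TPM in CAP (SD, n = 3).

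Isg15 encodes a ubiquitin-like protein that is attached to other proteins and is also secreted, Herc6 is the ligase that attaches it in the mouse, and Usp18 removes it and restrains the interferon receptor. Isg15 was at 49.9, 48.7 and 47.9 TPM in sham and 26.2, 9.94 and 13.3 TPM in CAP at day 3. The sham libraries were nearly equal, and every CAP library was well below them. The log2 difference was -1.68 (SE 0.32, adjusted p = 0.500 in limma, lower in 3 of 3 libraries). At day 6, Isg15 was at 31.2, 15.4 and 13.7 TPM in sham and 13.7, 9.50 and 5.52 TPM in CAP, and it was past the threshold again with a log2 difference of -1.05 (adjusted p = 0.242 in limma). The highest CAP library of day 6 lay at the level of the lowest sham library. Usp18 fell past the threshold at day 3 (log2 difference -1.31), with 18.2 ± 1.26 TPM in sham and 8.31 ± 4.84 TPM in CAP (SD, n = 3). Herc6 went from 8.17 ± 1.03 to 5.50 ± 1.03 TPM (log2 difference -0.57) and did not pass the threshold.

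Among the sensors, Ddx58 (RIG-I) and Ifih1 (MDA5) detect viral RNA, Dhx58 (LGP2) modulates them, Zbp1 senses nucleic acids in the Z form, and Eif2ak2 (PKR) is a kinase that shuts down translation. Zbp1 was at 83.6, 71.0 and 71.8 TPM in sham and 38.0, 14.3 and 23.8 TPM in CAP at day 3. All CAP libraries were below the sham libraries, and replicate 2 was the lowest. The log2 difference was -1.68 (SE 0.32, adjusted p = 0.500 in limma). Zbp1 at day 6 was at 38.9, 28.6 and 21.5 TPM in sham and 27.4, 13.4 and 16.5 TPM in CAP, where the groups overlapped (log2 difference -0.66). Dhx58 was the other sensor past the threshold at day 3 (log2 difference -1.05), while Ddx58 (-0.94), Ifih1 and Eif2ak2 were lower by less than 2-fold, with an unadjusted p under 0.05 for each of the 5 sensors.

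The antiviral effectors hold Mx1 and Mx2, dynamin-like proteins that trap viral components, Rsad2 (viperin) and Cmpk2, neighbours that act on nucleotides, Bst2 (tetherin), which holds budding virus at the cell surface, the exonuclease Isg20, and Ifitm3, which blocks fusion of viruses with membranes. Mx1, Mx2, Cmpk2 and Bst2 fell past the threshold at day 3, with log2 differences of -1.45, -1.47, -1.08 and -1.39. The annotation types Mx2 as a polymorphic pseudogene, and whether these mice make a working protein from Mx1 or Mx2 was not measured. Isg20 had the smallest p of this group and a smaller difference. It was at 22.7, 20.7 and 18.7 TPM in sham and 13.1, 12.8 and 13.2 TPM in CAP at day 3, with no overlap and CAP libraries that were nearly equal. Its log2 difference was -0.66 (SE 0.11, adjusted p = 0.500 in limma), under 2-fold. Ifitm3 was among the most abundant members, with 616, 483 and 538 TPM in sham and 394, 283 and 315 TPM in CAP at day 3. Each CAP library was below each sham library, and the difference of -0.73 (SE 0.16) was also under 2-fold. Rsad2, by contrast, had an uneven CAP group at day 3: sham libraries were at 17.6, 19.99 and 19.5 TPM, and CAP libraries at 17.2, 6.94 and 7.95 TPM. CAP replicate 1 lay at the edge of the sham group, and the log2 difference of -0.94 was just short of the threshold. At day 6, Rsad2 was at 10.3, 9.05 and 9.48 TPM in sham and 6.11, 4.24 and 3.94 TPM in CAP, the groups were apart, and it was past the threshold (log2 difference -1.02, SE 0.20, adjusted p = 0.205 in limma).

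The 4 PARP members, ADP-ribosyltransferases and the ubiquitin ligase Dtx3l that pairs with Parp9, were all lower at day 3 with an unadjusted p under 0.05, and none reached 2-fold (log2 differences -0.48 to -0.73). Parp9 was at 43.6, 34.6 and 37.4 TPM in sham and 27.4, 19.1 and 23.7 TPM in CAP. The groups did not overlap, with a log2 difference of -0.73 (SE 0.16, adjusted p = 0.500 in limma). At day 6, Parp9 was at 28.4, 24.9 and 25.4 TPM in sham and 23.8, 13.8 and 20.5 TPM in CAP, again without overlap (log2 difference -0.47). Parp9 and Dtx3l overlap on opposite strands, and no source used here states whether the counting used strand.

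The schlafen (SLFN) family, named after genes that restrain lymphocyte growth, differed among its members. Slfn1 fell past the threshold, Slfn8 was lower by less than 2-fold (log2 difference -0.87), and Slfn2, Slfn5 and Slfn9 overlapped between the groups at day 3. Slfn1 was at 60.6, 37.7 and 47.4 TPM in sham and 33.1, 15.1 and 16.5 TPM in CAP. The highest CAP library was just below the lowest sham library, and the log2 difference was -1.23 (SE 0.32, adjusted p = 0.539 in limma). At day 6, Slfn1 was at 20.9, 22.9 and 15.5 TPM in sham and 9.78, 4.70 and 16.5 TPM in CAP, past the threshold (log2 difference -1.09, adjusted p = 0.242 in limma) although CAP replicate 3 lay inside the sham range. Slfn2, which keeps T cells quiescent, was at 179, 139 and 168 TPM in sham and 132, 141 and 179 TPM in CAP at day 3. The groups were mixed throughout, and the log2 difference of -0.11 (SE 0.15) was within the spread of the libraries. Slfn2 and Trim25 were the members nearest to 0. At day 6 it was at 126, 161 and 144 TPM in sham and 87.1, 55.3 and 128 TPM in CAP (log2 difference -0.75, under 2-fold). Slfn8 and Slfn9 share 27.3% and 24.6% of their 31-base stretches with other genes.

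All 3 PHF11 genes, PHD-finger proteins, fell past the threshold at day 3. Phf11d had the smallest p of all members. It was at 31.8, 20.8 and 28.2 TPM in sham and 11.6, 7.54 and 8.68 TPM in CAP. The lowest sham library was well above the highest CAP library, and the log2 difference was -1.53 (SE 0.21, adjusted p = 0.475 in limma). Phf11d at day 6 was at 15.2, 10.7 and 9.74 TPM in sham and 10.5, 7.68 and 6.71 TPM in CAP, with overlap (log2 difference -0.52). The 3 genes are neighbours on chromosome 14 with shared sequence, 62.9% of the stretches in Phf11b and 12.5% in Phf11d. Their sum was 61.1 ± 7.80 TPM in sham and 24.3 ± 5.91 TPM in CAP at day 3, and 26.0 ± 5.82 and 17.6 ± 4.96 TPM at day 6 (SD, n = 3).

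The IFI200 genes Ifi203, Ifi204 and Mndal encode nuclear proteins that bind DNA, and all were lower at day 3 by less than 2-fold. Ifi203 was at 49.2, 40.1 and 52.5 TPM in sham and 31.7, 18.2 and 25.1 TPM in CAP. The groups did not overlap, and the log2 difference was -0.94 (SE 0.21, adjusted p = 0.500 in limma). At day 6, Ifi203 was at 38.8, 23.7 and 29.7 TPM in sham and 32.0, 19.5 and 21.1 TPM in CAP, with overlap. Because the 3 genes share 21.9% to 34.6% of their stretches with other genes, their sum is also given: 297 ± 37.7 TPM in sham and 177 ± 41.4 TPM in CAP at day 3 (SD, n = 3).

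Of the TRIM proteins, ubiquitin ligases, none passed the threshold. Trim30a was at 53.5, 34.0 and 45.0 TPM in sham and 28.8, 20.8 and 29.0 TPM in CAP at day 3, with no overlap (log2 difference -0.74, SE 0.20, adjusted p = 0.568 in limma). At day 6 it was at 35.6, 31.2 and 29.1 TPM in sham and 21.4, 13.7 and 20.5 TPM in CAP, again with no overlap (log2 difference -0.81). Trim21, a cytoplasmic antibody receptor, differed by -0.35 at day 3. Trim25, the ligase that activates RIG-I, was at 50.4, 49.8 and 47.0 TPM in sham and 42.5, 40.1 and 67.3 TPM in CAP. CAP replicates 1 and 2 lay below the sham libraries and replicate 3 above them. The log2 difference of -0.01 (SE 0.20) turns positive, to 0.05, when the libraries are scaled by the median ratio over genes. At day 6, Trim25 was at 43.2, 43.6 and 42.8 TPM in sham and 44.5, 39.6 and 47.7 TPM in CAP.

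The IFI27 pair, small membrane proteins of mitochondria and the nuclear envelope, went apart although the genes are neighbours on chromosome 12. Ifi27l2a was at 302, 292 and 336 TPM in sham and 134, 37.2 and 59.4 TPM in CAP at day 3. Every CAP library was below the lowest sham library by more than 2-fold, with replicate 1 the highest. The log2 difference was -2.21 (SE 0.42, adjusted p = 0.500 in limma). At day 6 the sham libraries were at 52.3, 29.8 and 42.2 TPM and the CAP libraries at 85.4, 65.7 and 20.9 TPM, so that CAP libraries were both the highest and the lowest (log2 difference 0.28, SE 0.51). Ifi27 was at 47.7, 37.8 and 49.1 TPM in sham and 50.6, 53.1 and 63.1 TPM in CAP at day 3, the only member whose CAP libraries were all above the sham libraries (log2 difference 0.31, unadjusted p = 0.0583 and adjusted p = 0.776 in limma). It did not pass the threshold.

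Irf7 is the transcription factor that amplifies type I interferon production, and Sp100 is a component of nuclear bodies. Irf7 was at 183, 201 and 199 TPM in sham and 98.8, 22.0 and 42.4 TPM in CAP at day 3. All CAP libraries were below sham, by amounts that differed widely among them, and the log2 difference was -2.10 (SE 0.48, adjusted p = 0.500 in limma). Irf7 at day 6 was at 46.7, 38.8 and 37.9 TPM in sham and 51.2, 35.7 and 22.7 TPM in CAP, with overlap (log2 difference -0.24). Sp100 was at 122, 96.3 and 124 TPM in sham and 78.5, 59.6 and 75.6 TPM in CAP at day 3, without overlap (log2 difference -0.68, SE 0.15, adjusted p = 0.500 in limma). Sp100 was lower by less than 2-fold at day 6 too, at 84.7, 76.4 and 77.1 TPM in sham and 64.4, 45.3 and 57.2 TPM in CAP.

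Of the 8 further members, Ifi44, Rtp4, Ly6e, Xaf1 and Lgals3bp fell past the threshold at day 3, with log2 differences of -2.37, -1.55, -1.16, -1.10 and -1.05. The other three, Ifi35, Samd9l and Epsti1, were lower by less than 2-fold. Ly6e, a membrane-anchored protein of the Ly6 family, was the most abundant member. It was at 1018, 819 and 868 TPM in sham and 581, 326 and 341 TPM in CAP at day 3, with no overlap (SE 0.23, adjusted p = 0.500 in limma). At day 6 it was at 576, 475 and 521 TPM in sham and 656, 342 and 394 TPM in CAP, with CAP replicate 1 above all sham libraries. Lgals3bp, a secreted glycoprotein that binds galectins, was at 584, 414 and 506 TPM in sham and 315, 171 and 253 TPM in CAP at day 3. All CAP libraries were lower. At day 6 it was at 314, 258 and 305 TPM in sham and 265, 156 and 279 TPM in CAP, and the groups overlapped. Epsti1, which had the smallest p of this group, was at 47.9, 41.6 and 49.8 TPM in sham and 31.3, 21.5 and 27.2 TPM in CAP at day 3, without overlap (log2 difference -0.81, SE 0.15, adjusted p = 0.500 in limma). At day 6, Epsti1 was at 32.5, 23.0 and 30.2 TPM in sham and 25.9, 17.4 and 23.8 TPM in CAP. Ifi44, the member of lowest level, was at 3.95, 2.34 and 3.17 TPM in sham and 1.74, 0.251 and 0.266 TPM in CAP at day 3, with no overlap. Its log2 difference ran from -2.56 to -1.33 over the alternative fits that tested it.

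**Figure D3:**
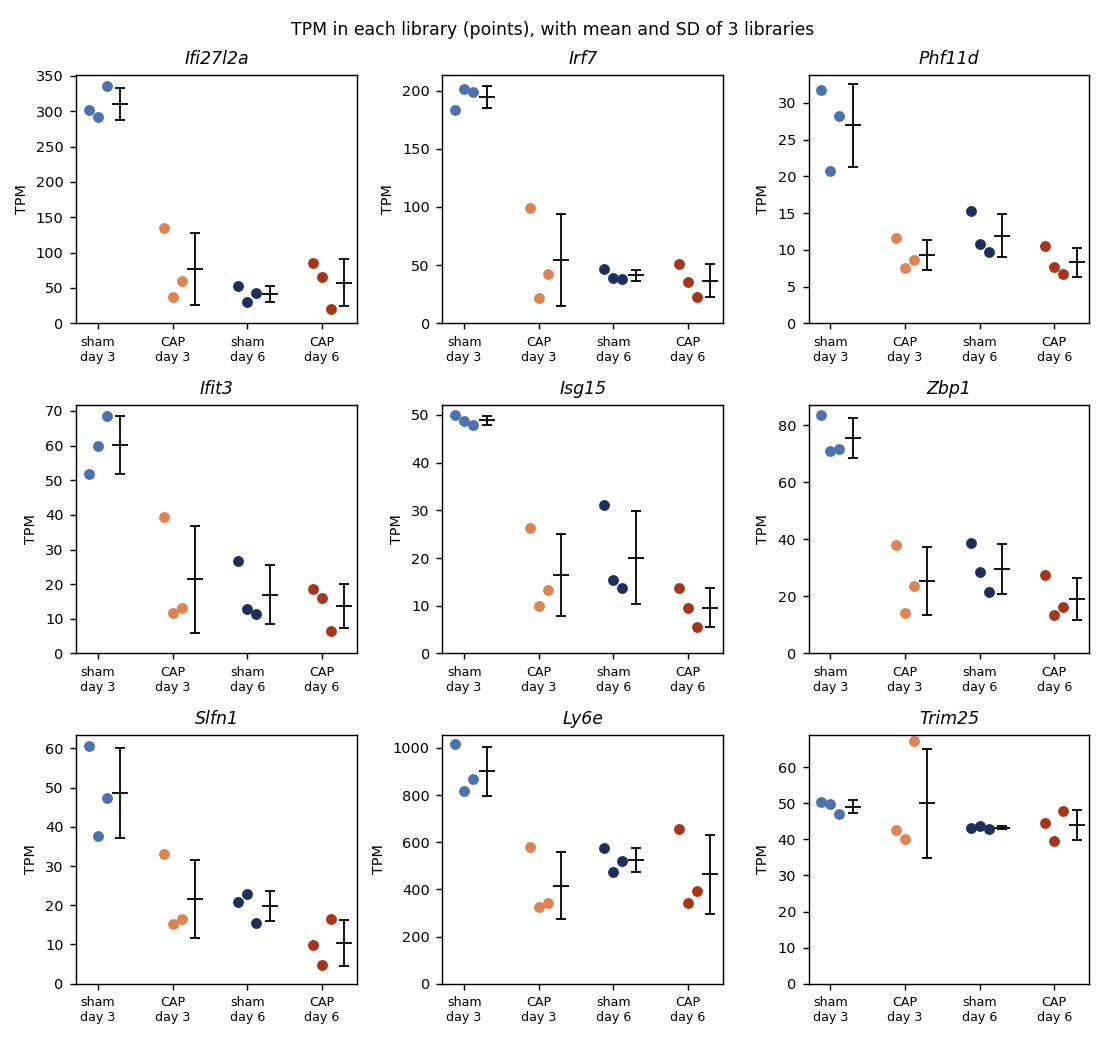
TPM of 9 members in each library (points, in the order of replicates 1 to 3) with the mean and SD of the 3 libraries beside them, for sham and CAP at day 3 and day 6. Sham day 3 is above the other 3 groups in 8 of the panels, and in Trim25 the groups lie together apart from CAP replicate 3 of day 3 at 67.3 TPM.

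The same comparison at day 6 gave smaller differences. Only Isg15, Rsad2 and Slfn1 fell past the threshold, 3 of 49 members against 2.34% lower of the 18323 genes tested, and none rose. The median member had a log2 difference of -0.53, where the median of all genes was -0.12. In 46 members the difference was negative, as in 65.7% of all genes, and the positive ones were Ifi27l2a, Phf11a and Trim25. In 20 members the CAP libraries were all below the sham libraries, as in 18.0% of all genes. No member and none of all genes passed the adjustment in limma (members' adjusted p 0.205 to 0.980), while 21 members and 3517 of all genes had an unadjusted p under 0.05. The count rested on few libraries, with 0 members past the threshold when sham replicate 1 or CAP replicate 2 was left out and 5 when CAP replicate 1 was left out. Of all genes, 1.39%, 0.931% and 3.01% were lower past it in those fits. Without CAP replicate 3, 5 members and 1430 of the 18148 genes tested passed the adjustment in limma, with 3 members past the threshold. When libraries were scaled by the median ratio, which moves the median of all genes to -0.00, no member passed and the median member was at -0.41. The split of all genes past the threshold, 429 lower and 268 higher, turned to 285 and 403 with that scaling. In all, 45 members were lower in CAP at both days, and Isg15 and Slfn1 were past the threshold at both. The shares of all genes that were so at both days were not counted.

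The course of the family from day 3 to day 6 was measured within each treatment. In sham wounds it fell: 20 members were lower past the threshold and none higher, against 1.61% lower of the 18368 genes tested, and the median log2 difference was -0.71 where that of all genes was 0.00. The sham libraries of day 6 lay below all those of day 3 in 40 members, as in 10.6% of all genes. At an adjusted p under 0.05 in limma, 21 members passed, all lower, against 1.14% lower of all genes. The level of Ifi27l2a went from 310 ± 23.0 to 41.4 ± 11.3 TPM (SD, n = 3), a log2 difference of -2.94 (adjusted p = 0.00885 in limma, lower in 3 of 3 libraries). Irf7 fell by 2.24, from 195 ± 9.75 to 41.1 ± 4.85 TPM (adjusted p = 0.00133 in limma), the smallest p of all members. Ifit3 fell by 1.91, from 60.1 ± 8.37 to 17.0 ± 8.39 TPM (adjusted p = 0.0308 in limma), and Bst2 by 1.09, from 157 ± 6.54 to 73.7 ± 6.11 TPM (adjusted p = 0.00985 in limma).

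Members differed in how far they declined in sham wounds. All 4 IFIT and all 3 PHF11 members were past the threshold, as were Isg15, Usp18, Zbp1, Mx1, Mx2, Cmpk2, Bst2, Slfn1, Ifi27l2a, Irf7, Ifi44, Xaf1 and Rtp4. None of the PARP, IFI200 or TRIM members reached 2-fold. Isg20 (log2 difference 0.02), Slfn5 (0.11) and Ifi27 (0.54) were the members with a positive difference, and Ifi27 had an unadjusted p of 0.0108 and an adjusted p of 0.153 in limma. The number past the threshold was 19 to 22 with any library left out, where 1.63% to 1.88% of all genes were lower past it. The number that passed the adjustment was less steady, with 1 member without sham replicate 3 of day 3, 5 without sham replicate 3 of day 6 and 0 in a joint fit of all 12 libraries. This loss was not particular to the members, since the 420 of all genes that passed became 1, 89 and 0 in those fits.

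In CAP-treated wounds the decline was small. Only Rsad2 fell past the threshold from day 3 to day 6, by 1.06 on the log2 scale (10.7 ± 5.68 to 4.77 ± 1.18 TPM, SD, n = 3, adjusted p = 0.369 in limma), against 1.52% lower of the 18202 genes tested. In 46 members the difference was negative, as in 57% of all genes. The median member was at -0.39, where the median of all genes was -0.05. The groups were apart with day 6 lower in 5 members, as in 9.63% of all genes, and no member passed the adjustment in limma, while 5 members and 2107 of the 18202 genes tested had an unadjusted p under 0.05. CAP replicate 1 of day 3, the highest of its group, weighed on this result. Without it 0 members passed the threshold, 33 of the 48 still tested were negative, and the median was -0.18. There were 3 without CAP replicate 2 of day 3, and 4, 0 and 2 without CAP replicates 1, 2 and 3 of day 6. Of all genes, 1.47% and 1.06% were lower past the threshold without CAP replicates 1 and 2 of day 3. Without CAP replicates 1, 2 and 3 of day 6 the shares were 1.52%, 0.818% and 2.96%. The comparisons above share libraries, since sham at day 3 is the reference both for CAP at day 3 and for sham at day 6. Side by side, the log2 differences of CAP at day 3 and of sham through time were -2.10 and -2.24 for Irf7, -2.21 and -2.94 for Ifi27l2a, and -0.66 and 0.02 for Isg20, all against those same 3 sham libraries.

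**Figure D4:**
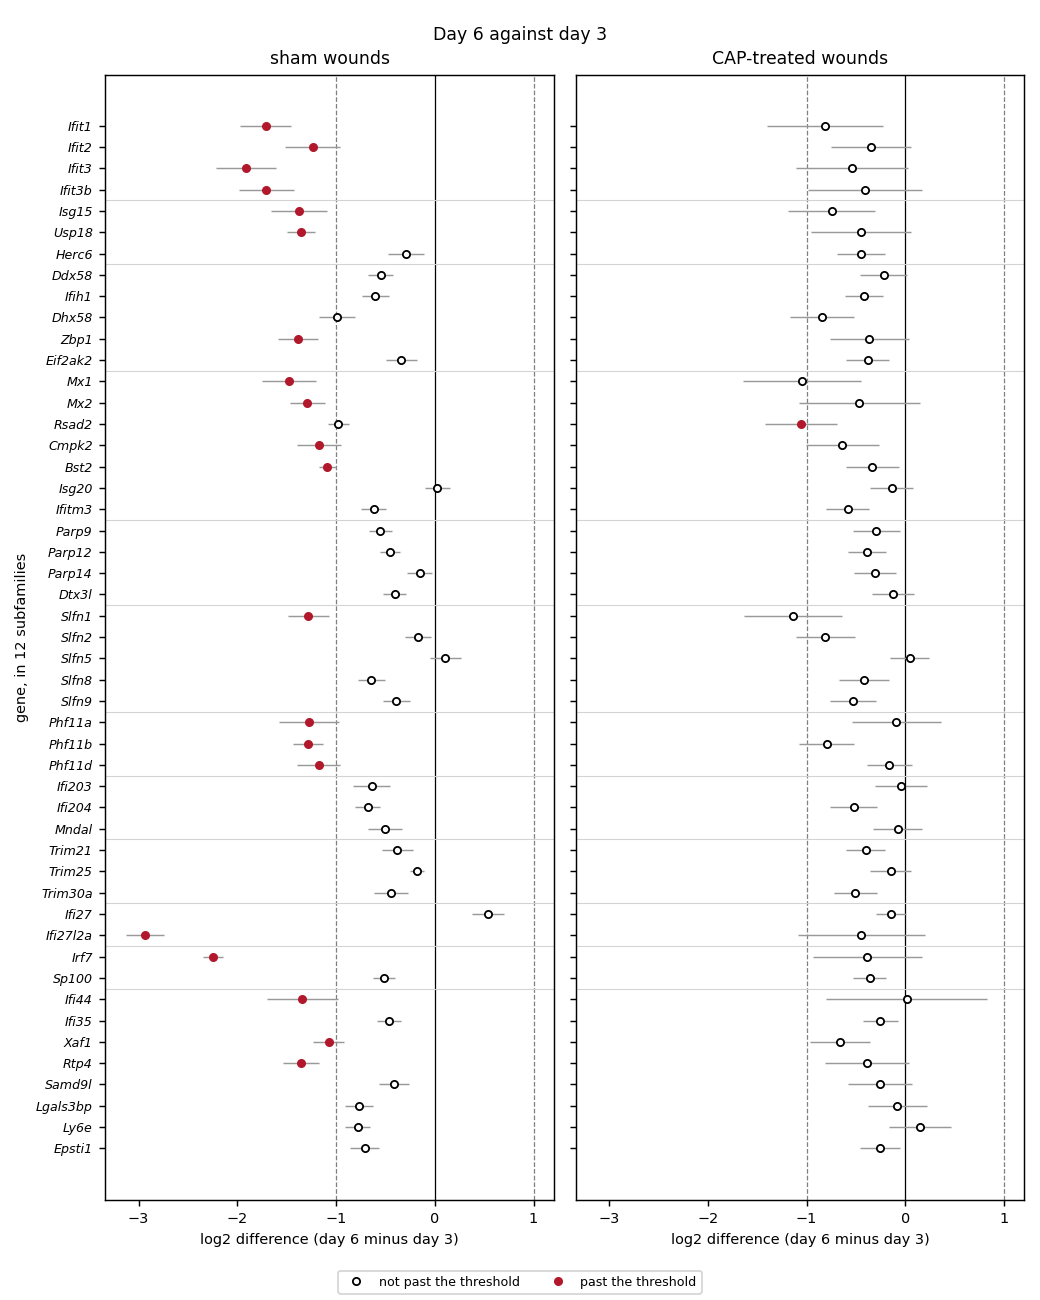
Log2 difference of day 6 minus day 3 on the scale log2(TPM + 0.1) for the 49 members in sham (left) and CAP-treated wounds (right), with the SE from limma as bars, dashed lines at 2-fold and red points past the threshold. In sham wounds 20 members are red and below -1, and in CAP-treated wounds only Rsad2 is.

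Whether the difference between CAP and sham changed from day 3 to day 6 was tested with an interaction term, for which a positive value means that the difference was less negative at day 6. Ifi27l2a (2.49 on the log2 scale, SE 0.74), Irf7 (1.86, SE 0.62) and Phf11d (1.01, SE 0.34) were past the threshold, 3 of 49 members against 4.09% of the 17784 genes tested, in either direction. No member passed the adjustment in limma (adjusted p 0.424 or more), and 6 had an unadjusted p under 0.05, the others being Ly6e (0.93), Bst2 (0.75) and Ifi27 (-0.68). Of the 17784 genes tested, 2038 had an unadjusted p under 0.05, a share close to that of the members. The median member was at 0.33, with 38 positive, where the median of all genes was -0.06 and 57% of them were negative. Ifi27l2a and Irf7 were past the threshold in all 16 alternative fits. The count moved to 13 without CAP replicate 1 of day 3, 9 without sham replicate 1 of day 6, 9 without CAP replicate 3 of day 6 and 6 without CAP replicate 2 of day 6. Over all genes, the 728 past the threshold became 1053, 679, 1423 and 432 in those fits. A difference between the days was thus not established for any member with 3 libraries per group.

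The genes upstream of the family were looked at with lists of interferons, of receptors and signal transducers, and of the sensors and factors that induce interferon. Of the 21 interferon genes listed, none was at 0.3 TPM or more on average in any group, and their sum was at most 0.572 TPM in each of the 12 libraries. None of the 15 receptors and signal transducers passed the threshold in any of the comparisons. At day 3 their median log2 difference between CAP and sham was -0.06, and 4 had an unadjusted p under 0.05. Stat2, a subunit of the complex that binds the response element, was at 76.1, 68.1 and 69.7 TPM in sham and 53.3, 33.8 and 36.0 TPM in CAP at day 3, with no overlap and a log2 difference of -0.82 (SE 0.18, under 2-fold). Irf9, which binds DNA in the same complex, had a log2 difference of -0.49, and the receptor chains Ifnar1 and Ifnar2 of 0.02 and -0.04. At day 6 the median of the list was -0.39 and 8 had an unadjusted p under 0.05, with Ifnar1 and Ifnar2 at -0.65 each. Among the 12 genes that induce interferon, 1 fell past the threshold at day 3, Tlr9, a receptor for DNA in endosomes, which was at 18.4, 14.2 and 15.5 TPM in sham and 11.2, 8.42 and 4.19 TPM in CAP (log2 difference -1.10). Sting1, an adaptor of DNA sensing, had a log2 difference of -0.59. None of the 12 passed at day 6.

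In bulk tissue, fewer cells of a type and less RNA per cell cannot be told apart, so markers of cell types are given beside these results. At day 3 the sum of 8 monocyte and macrophage markers was 3953 to 5594 TPM in sham and 4604 to 10031 TPM in CAP, and 2 of the 8 were lower past the threshold, with a median log2 difference of 0.01. These were Ly6c2 and Ccr2, which mark inflammatory monocytes. Ly6c2 was at 53.9, 87.0 and 79.8 TPM in sham and 30.4, 16.5 and 4.16 TPM in CAP at day 3 (log2 difference -2.48), and at 18.7, 17.1 and 13.9 TPM in sham at day 6. Ccr2 was at 107, 78.0 and 91.3 TPM in sham and 49.2, 34.4 and 28.2 TPM in CAP at day 3 (log2 difference -1.33). Among the CAP libraries of day 3, both were highest in replicate 1, as were 38 members, and lowest in replicate 3, whereas replicate 2 was the lowest in 43 members. The part of these cells in the result was not tested.

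Of the T and NK cell markers, 2 of 8 tested were lower past the threshold at day 3, Ncr1 (2.15 ± 0.61 TPM in sham, 0.669 ± 0.10 TPM in CAP) and Trac (2.07 ± 0.55 and 0.805 ± 0.43 TPM, SD, n = 3). A negative difference was seen in 7 of the 8, with a median of -0.46, and 4 had an unadjusted p under 0.05 in limma. The sum of the list was 30.4 to 37.1 TPM in sham and 25.7 to 33.7 TPM in CAP. Of the 3 markers of plasmacytoid dendritic cells tested at day 3, 2 had a negative difference, with a median of -0.27 for the list. Tcf4 was at 31.6 ± 1.93 TPM in sham and 26.2 ± 2.29 TPM in CAP, the 1 with an unadjusted p under 0.05 in limma. Ccr9 was at 2.33 ± 0.83 and 2.37 ± 0.56 TPM (SD, n = 3). Siglech was low in all libraries of day 3, at 0.742, 1.06 and 1.04 TPM in sham and 0.771, 0.423 and 0.283 TPM in CAP (log2 difference -0.89), and it did not pass the threshold. None of the 6 neutrophil, 6 keratinocyte, 5 fibroblast, 5 endothelial or 4 muscle markers tested passed the threshold at day 3, nor did the 6 of dendritic cells, the 3 of plasmacytoid dendritic cells or the 1 of B cells, while 3 of 3 erythroid markers rose (median log2 difference 2.11). All 5 fibroblast markers had a negative difference at day 3, with a median of -0.42 on the log2 scale, and 3 of them had an unadjusted p under 0.05. At day 6, Krt1 and Krt10 of the 6 keratinocyte markers were higher in CAP (log2 differences 1.86 and 1.62), and 3 of 5 endothelial markers were lower (median of the list -1.11), as were 1 of 8 monocyte and macrophage markers, Ccr2, and 1 of 4 muscle markers. None of the neutrophil, T and NK cell, dendritic, B cell, fibroblast or erythroid markers tested passed at day 6. In sham wounds from day 3 to day 6, Ly6c2 was lower (log2 difference -2.13), 1 of 6 keratinocyte and 1 of 4 muscle markers were lower, and 3 of 5 endothelial, 3 of 3 erythroid and 1 of 8 T and NK cell markers were higher. In CAP-treated wounds from day 3 to day 6, 2 of 5 neutrophil markers were lower past the threshold (median of the list -1.80) and 4 of 8 T and NK cell markers higher (median 1.02). Of the 6 keratinocyte markers 1 was lower and 2 were higher in that comparison, and 1 of 4 muscle markers was lower. The part of these cell types in the members' values was likewise not tested.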

How the data were processed

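The authors sequenced SureSelect XT HS2 mRNA libraries of skin wounds. Per the labels' processing notes, bcl2fastq, Trimmomatic 0.36 and the genome build mm10 were used, and per the study's methods StringTie estimated expression. The aligner, annotation release and strand setting: not given in the sources used here. Each of the 12 deposited tables lists TPM of 55487 genes for 1 library, with 0.0001 in place of 0, and has 0 further columns of per-sample values. Depth is unknown, and only the spread among the 3 libraries of a group gives the precision.

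Groups were taken from the treatment and day in the labels. The design named edgeR for counts and limma for TPM, and because the tables hold TPM, limma 3.58.1 in R 4.3.3 was fitted to log2(TPM + 0.1) with a trend of the variance over the mean, not robust, on the groups compared and, for the difference between the days, on all 12 libraries. A gene was tested where its mean reached 0.3 TPM in each group, and p values were adjusted over all of them by the Benjamini-Hochberg method. The threshold, taken from the study's methods, was 2-fold or more with an unadjusted p under 0.05. Single genes were also tested with the exact 2-sided permutation test. The fit was tested on values simulated for CAP against sham at day 3. Of 67 genes changed 2-fold, 56.7% were found past the threshold. At 3-fold and 4-fold the share was 98.5% each, of 67 and 66 genes. Because 2-fold is also the cutoff, a share of the genes changed 2-fold must fall short of it at any precision. True changes near 2-fold can thus be missed by these counts. The changed genes were drawn at random above a minimum level in sham at day 3. The members had a wider spread in CAP at day 3 (median SD 0.438 on the log2 scale, against 0.208 for all genes). The shares found thus do not describe detection among the members. Tables and figures were made with pandas 2.3.3, matplotlib 3.10.9 and numpy 2.4.6 in Python 3.11.15.

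The members, the subfamilies and the lists of upstream and marker genes were chosen with earlier results of these data known. Values in every library are given, by rule, for the member of smallest p at day 3 in each subfamily, the members past the threshold in the interaction, the 3 of highest mean TPM and the 2 nearest to 0 at day 3. Values of Rsad2, Ifi27 and Ifi44, and of the upstream and marker genes named, were added after they were seen. Alternatives were a pseudocount of 1 TPM, no filter, the replicate number as a block, median-ratio scaling, a joint fit and leaving out each library. Replicate numbers were taken to pair the samples only where every same-number correlation of deviations was over 0.1. They ranged from -0.11 to 0.22 over the comparisons, so the numbers were not used as pairs. Promoters are those of RefSeq on GRCm38.p6, and shared sequence was counted as 31-base stretches of GENCODE M21 transcripts found in other genes.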

Additional observations from a re-analysis of the deposited data

Results flagged for a closer look

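In 3 members the interaction term of limma, for a change in the difference between CAP and sham from day 3 to day 6, was past the threshold. They are 3 of 49 members, against 4.09% of the 17784 genes tested. The count is near that share, so it is not a result about the members as a set. Ifi27l2a had the widest such difference, 2.49 on the log2 scale (unadjusted p = 0.00658, adjusted p = 0.424 in limma): its log2 difference was -2.21 at day 3 and 0.28 at day 6, when CAP was higher than the sham mean in 2 of 3 libraries. Irf7 had a difference of 1.86 (unadjusted p = 0.0125, adjusted p = 0.424 in limma), from -2.10 at day 3 to -0.24 at day 6. Phf11d had a difference of 1.01 (unadjusted p = 0.0123, adjusted p = 0.424 in limma), from -1.53 to -0.52. None passed the adjustment. Ifi27l2a and Irf7 were past the threshold in all 16 alternative fits, and Phf11d was not. In Ifi27l2a and Irf7 the sham libraries fell by 2.94 and 2.24 from day 3 to day 6, while the CAP libraries differed by -0.45 and -0.38 between the days.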

How the results depend on the processing

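The 23 members past the threshold for CAP against sham at day 3 became 15 to 26 with a library left out, with the lowest count without CAP replicate 2, and 21 to 23 in the other alternatives. The 3 of day 6 became 1 with a pseudocount of 1 TPM, 1 with no filter, 0 with median-ratio scaling and 0 to 5 with a library left out. In sham wounds through time, the 20 became 18 to 20 in the other alternatives and 19 to 22 with a library left out. In CAP-treated wounds through time, the 1 became 0 with a pseudocount of 1 TPM, 2 in the joint fit and 0 to 4 with a library left out. The 3 of the difference between the days became 2 to 13 with a library left out. The log2 difference of Trim25 at day 3, -0.01, turned positive with median-ratio scaling (0.047) and ranged from -0.25 to 0.13 with a library left out. With the replicate number as a block, the counts were 23, 4, 20, 3 and 7 in the same order. Same-number libraries had correlations of -0.11 to 0.04 at day 3 and 0.02 to 0.09 at day 6, where 6 of 6 libraries were closest to their own number, a hint from the data and not the design. Over all genes, the 290 past the threshold at day 3 were 154 with a pseudocount of 1 TPM and 568 with no filter, the 697 of day 6 were 385 with that pseudocount, and 311 without CAP replicate 2 and 1483 without CAP replicate 3. The 688 of sham through time were 405 and 1156, and the 507 of CAP through time were 299 and 842. The 728 of the interaction were 1207 with no filter and 432 to 1423 with a library left out. The cause of these changes was not tested. Depth is unknown with TPM, and it limits the members of low level, such as Ifi44, in a way that could not be measured.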
